A study of Mus musculus with 6 samples.

Results

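The keratins described here are the genes of stratified and papillary epithelium: every row of the deposited table whose symbol is Krt followed by a number and at most 1 letter, without Krt7, Krt8, Krt18 and Krt19, the keratins of simple epithelium. By this rule 29 of the 15648 listed genes were members, 16 of type I and 13 of type II. The RNA came from the intermolar eminence, the raised back part of the mouse tongue between the molars, at E17.5, late in gestation. There were 3 wild-type (WT) libraries and 3 libraries labelled Fst-KO, all from C57BL/6 mice. Fst encodes follistatin, a secreted inhibitor of activins. The mutant allele, and whether each library came from 1 embryo, were not given in the sources used here, so the p-values reflect the spread among 3 libraries a group, and that spread could be technical. The labels call the tissue tongue epithelium and the protocol speaks of dissected eminence tissue, and markers of muscle and mesenchyme were abundant beside those of epithelium.

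Keratins form the intermediate filaments of epithelial cells, and each filament is built from equal amounts of a type I and a type II chain. In stratified epithelium the basal, dividing cells make Krt5 and Krt14, and cells that leave the basal layer replace them with a pair that depends on the tissue: Krt4 and Krt13 in soft oral lining, Krt1 and Krt10 in cornifying skin and palate. The tongue surface also carries filiform papillae, cornified spines that make hair-type ("hard") keratins such as Krt36 and Krt84, and the keratins Krt6a, Krt6b, Krt16 and Krt17, which elsewhere mark activated or appendage epithelium.

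The authors' deposited table gives 1 mean per group in a normalised signal whose scale is not stated, the ratio of these means, a p-value and an FDR, and no value per library. No spread between replicates can therefore stand beside a mean, depth is unknown, and whether the groups overlap cannot be seen. Fst itself had a mean of 69.7 in the libraries labelled Fst-KO and 33.2 in WT in the authors' deposited table (ratio 2.10, FDR 0.0158), against the direction of the label. Which part of Fst the allele removes was not given, so every direction below is that of the labels only. Over all genes the median ratio was 1.14, or 0.18 on the log2 scale, and ratios relative to that median are given where they matter.

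The windows upstream of 7 members are shown because these genes stand for the classes described below: Krt5 (basal), Krt13 (soft suprabasal, higher mean), Krt76, Krt24 and Krt10 (suprabasal, lower means), and Krt84 and Krt33b (hard). Each is the 150 bases before the RefSeq gene start on GRCm38.p6, minus strand, written 5′ to 3′, with TATA-like strings in capitals.
Krt5, chr15:101712906-101713055: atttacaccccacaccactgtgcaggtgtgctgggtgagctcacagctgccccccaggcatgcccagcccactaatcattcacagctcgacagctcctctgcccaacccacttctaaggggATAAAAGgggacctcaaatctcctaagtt
Krt13, chr11:100121567-100121716: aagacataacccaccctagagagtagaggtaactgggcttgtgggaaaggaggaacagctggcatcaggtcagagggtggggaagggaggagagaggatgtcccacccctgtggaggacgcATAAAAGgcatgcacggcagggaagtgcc
Krt76, chr15:101892921-101893070: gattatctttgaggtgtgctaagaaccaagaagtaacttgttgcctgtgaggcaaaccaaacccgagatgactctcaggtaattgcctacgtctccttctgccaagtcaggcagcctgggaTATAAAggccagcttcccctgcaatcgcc
Krt24, chr11:99285263-99285412: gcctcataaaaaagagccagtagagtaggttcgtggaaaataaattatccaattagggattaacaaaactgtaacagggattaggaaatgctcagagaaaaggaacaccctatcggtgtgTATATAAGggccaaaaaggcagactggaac
Krt10, chr11:99389365-99389514: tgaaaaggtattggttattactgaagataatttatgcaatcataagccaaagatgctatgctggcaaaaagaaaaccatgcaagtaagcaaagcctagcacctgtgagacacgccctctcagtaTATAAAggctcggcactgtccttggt
Krt84, chr15:101532821-101532970: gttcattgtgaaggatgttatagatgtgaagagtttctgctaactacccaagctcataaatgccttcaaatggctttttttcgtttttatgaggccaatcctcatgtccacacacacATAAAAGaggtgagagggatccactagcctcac
Krt33b, chr11:100029869-100030018: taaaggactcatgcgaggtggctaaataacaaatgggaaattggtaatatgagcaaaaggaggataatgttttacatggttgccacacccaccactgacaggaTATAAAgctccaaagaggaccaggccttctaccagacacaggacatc

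RefSeq windows were matched for 17 of the 29 members. The string TATAAA, on either strand, was in 6 of these 17 windows (35.3%) and in 7.57% of the 32851 windows of the same length from all genes. Including ATAAAAG and TATATAAG, strings added after the windows had been read, 14 of 17 held a match, against 9.89% of all windows. TATAAA began 29 bases before the start in Krt76, 26 in Krt10 and 47 in Krt33b, while the windows of Krt5, Krt13 and Krt84 held ATAAAAG and that of Krt24 TATATAAG. The strings were found in windows of genes with higher and of genes with lower means. No match was found in the windows of Krt14, Krt23 and Krt79. Each of these genes had a ratio above 1, as did 81% of all genes. Krt23, at 1.04, fell to 0.913 relative to the median of all genes. Whether a match goes with the ratio was not tested. TGANTCA, the AP-1 consensus, and GCCNNNGGC, an AP-2 consensus, were in 0 of the 17 windows, against 4.24% and 9.61% of all. The Krt14 window is counted among the 17 but not shown, because its RefSeq start lies 1518 bases inside the longer GENCODE model of the gene. The RefSeq start of Krt23 lies 17 bases inside its GENCODE model, and its window overlaps a Krt23 exon. For Krt14 and Krt23, a missing match may therefore reflect the start used.

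Keratin RNA was abundant, and a few genes carried most of it. Summed over the 29 members, the signal was 13339 in WT and 16726 in the libraries labelled Fst-KO, which is 2.11% and 2.49% of all listed signal. Since reads per gene grow with gene length, levels of different genes are compared here per kilobase of annotated exon, on which scale the 10 highest members held most of the WT signal. Krt13, the soft suprabasal type I chain, was first in WT with 1503 per kb, followed by Krt6a with 1248, Krt5 with 700, Krt4 with 606, Krt14 with 499, Krt15 with 410 and Krt17 with 325. The next were Krt16 with 247 per kb and the papillary hard keratins Krt84 with 211 and Krt36 with 199. Whether neighbours in this order differ beyond replicate spread cannot be said, because no spread is given. The order also rests on the division by length. Without it, Krt6a (3018) led Krt13 (2737) in WT, and 9 of the 10 highest were the same. Krt6b (428) then took the place of Krt36 (333). In bulk tissue, fewer cells of a type and less RNA per cell cannot be told apart, which holds for every keratin below.

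**Figure D1:**
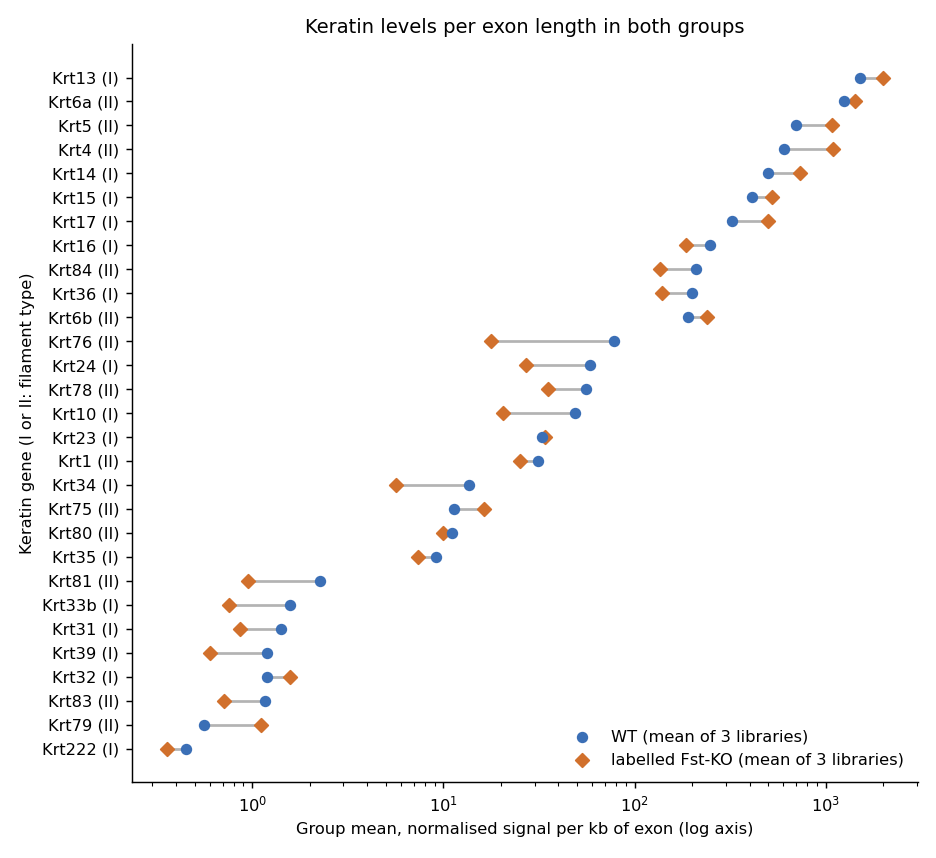
Group mean of each of the 29 keratin genes in normalised signal per kb of exon (log axis), with circles for WT and diamonds for the libraries labelled Fst-KO, each the mean of 3 libraries without an error. Krt13 and Krt6a lead in both groups, the 7 most abundant genes all lie to the right in the libraries labelled Fst-KO, and Krt76 shows the widest gap.

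The 7 highest members were the same in both groups, with Krt4 ahead of Krt5 in the libraries labelled Fst-KO (1092 against 1073 per kb). Further down, Krt6b moved from rank 11 in WT to rank 8, while Krt76 moved from rank 12 to rank 17. The other end of the order was made of hair-shaft keratins and a few minor ones: Krt81, Krt33b, Krt31, Krt39, Krt32, Krt83, Krt79 and Krt222 had between 0.450 and 2.27 per kb in WT.

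A further 21 of the 50 keratin symbols in the GENCODE M21 annotation that fit the rule were not among the 15648 listed genes, so they have no value here. The lowest mean of both groups over all genes analysed was 1.01. All 8 keratins of the inner root sheath of the hair follicle (Krt25 to Krt28 and Krt71 to Krt74) are among the 21 that were not listed. So are Krt2, Krt9 and Krt77 of cornified epidermis, Krt12 of the cornea, Krt20, Krt42, Krt88, Krt90 and the hard keratins Krt33a, Krt40, Krt82, Krt86 and Krt87. All 3 basal and all 5 oral suprabasal keratins, and 10 of 15 hard keratins, were analysed. The 29 members are therefore not the whole family. Whether a lower limit on the level was set is unknown, and a scarce gene could pass such a limit through either group.

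By the authors' Partek test, 0 of 29 keratins passed the FDR of 0.05 that is used throughout, against 0.0959% of all genes (0.0767% with a higher mean than in WT and 0.0192% with a lower mean). At an unadjusted p under 0.05 there were 6 of 29 members (20.7%), against 15.6% of all genes. Of these, 3 had a higher mean in the libraries labelled Fst-KO (10.3% of members, against 13.4% of all genes): Krt17, Krt5 and Krt14. The other 3, Krt24, Krt76 and Krt33b, had a lower mean (10.3%, against 2.17% of all genes). The share with an unadjusted p was thus near the background on the higher side and above it on the lower side. No list test was run on this difference.

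Low ratios were frequent among the members. A ratio at or under 0.5 was listed for 6 of them (20.7%), and for 0.435% of all genes, a limit chosen after the values were seen. With 10 added to both means, 2 members, Krt76 and Krt10, stayed at or under 0.5, against 0.0767% of all genes. A ratio below 1 was found for 17 of 29 members (58.6%), against 19% of all genes, and a ratio above 1 for 12, against 81%. Relative to the median of all genes, which by construction has 50% on each side, 10 members lay above and 19 below. The median ratio over the members was 0.7997, or 0.704 relative to that median. Yet the summed signal was 1.25 times that of WT. Median and sum differ in sign because the sum is set by few genes: of the 10 members highest per kb in WT, 7 had a higher mean and 3, Krt16, Krt84 and Krt36, a lower one (median ratio 1.30), while 14 of the other 19 had a lower mean (median ratio 0.638).

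**Figure D2:**
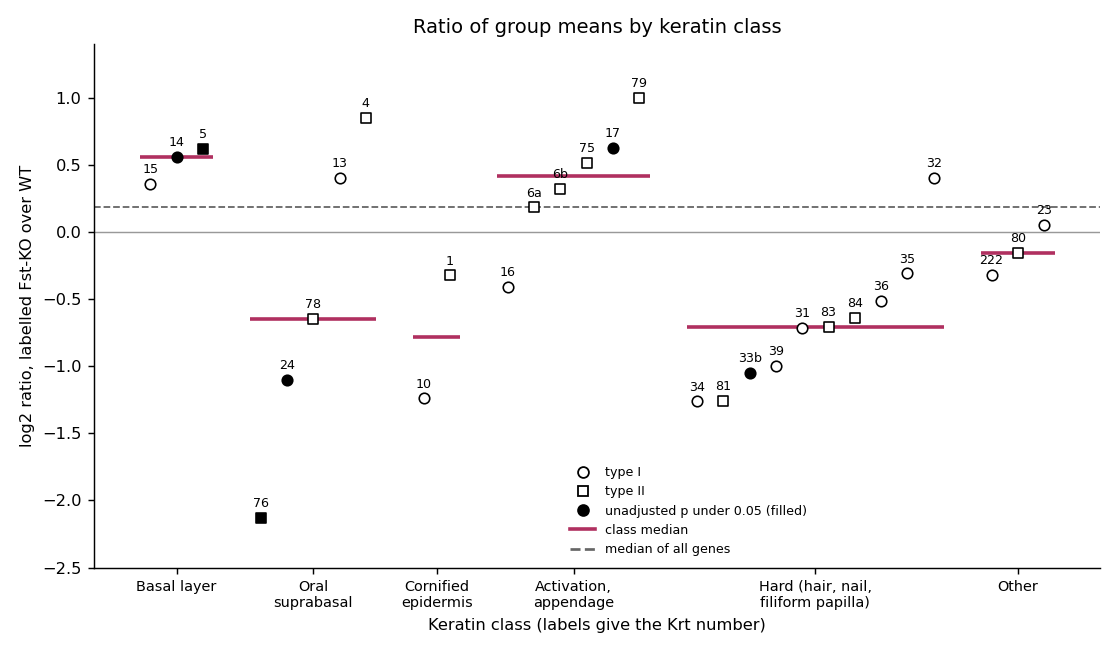
Log2 ratio of the group means, labelled Fst-KO over WT, for each keratin by class, with circles for type I, squares for type II, filled symbols for an unadjusted p under 0.05, a bar for the class median and a dashed line for the median of all genes (0.18). The 3 basal keratins lie above the dashed line, 9 of 10 hard keratins lie below 0, and the oral suprabasal class spans from Krt76 at -2.13 to Krt4 at 0.85.

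The basal keratins had higher means in the libraries labelled Fst-KO. For Krt5, the type II chain of the basal pair, the means were 2358 against 1538 in WT in the authors' deposited table (ratio 1.53, p = 0.0235, FDR 0.302). Its partner Krt14 had 1292 against 877 in the authors' deposited table (ratio 1.47, p = 0.0247, FDR 0.302). Krt15, a type I chain made mainly by basal cells, had 929 against 725 in the authors' deposited table (ratio 1.28, p = 0.150). None passed the FDR. All 3 stayed above 1 relative to the median of all genes, where Krt5 was at 1.35, Krt14 at 1.30 and Krt15 at 1.13. Their summed signal was 4578 against 3139, or 27.4% of all keratin signal here against 23.5%. Epithelial markers other than keratins had a median ratio of 1.21, and their part in these values was not tested.

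The soft suprabasal pair of oral lining also had higher means, without an unadjusted p under 0.05. Krt4 had means of 2330 and 1292 in WT in the authors' deposited table, a ratio of 1.80 with p = 0.0562 and an FDR of 0.321. Krt13 had 3616 against 2737 in the authors' deposited table, a ratio of 1.32 with p = 0.194. Relative to the median of all genes these were 1.59 and 1.16.

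The other suprabasal keratins had lower means. Krt76, a type II keratin of cornifying palate and gingiva, had the lowest ratio of any member: its mean was 41.2 against 181 in WT in the authors' deposited table (ratio 0.228, p = 0.00277, FDR 0.233). Krt24, a type I keratin of differentiating keratinocytes, had 50.2 against 108 in the authors' deposited table (ratio 0.466), with the lowest p of any member, 0.00201, and an FDR of 0.210. Krt78, a suprabasal type II keratin, had 122 against 191 in the authors' deposited table (ratio 0.638, p = 0.153). These 3 genes together made up a small part of the member signal, so the sum over the oral suprabasal class, 6160 against 4509, followed Krt4 and Krt13.

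The pair of cornified skin was lower too, without an unadjusted p under 0.05. Krt10, the type I chain, had 43.5 against 103 in the authors' deposited table (ratio 0.423, p = 0.0571, FDR 0.321). Its type II partner Krt1 had 110.5 against 138 in the authors' deposited table (ratio 0.799, p = 0.415). The p of Krt10 lies close to that of Krt4, whose mean was higher.

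Basal keratins had the higher ratio than differentiated keratins both by median and by sum, but the gap was far smaller by sum. The differentiated class was Krt4, Krt13, Krt24, Krt76, Krt78, Krt1 and Krt10. Of its 7 genes, 5 had a ratio below 1, against 19% of all genes. Its median ratio was 0.638, against 1.47 for the 3 basal genes. By summed signal the differentiated class was 1.33 times WT and the basal class 1.46 times. Without Krt4 and Krt13, a choice made after the values were seen, the summed signal of the differentiated class was 0.510 of WT. Members are not replicates, and the difference between the classes was not tested.

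**Figure D3:**
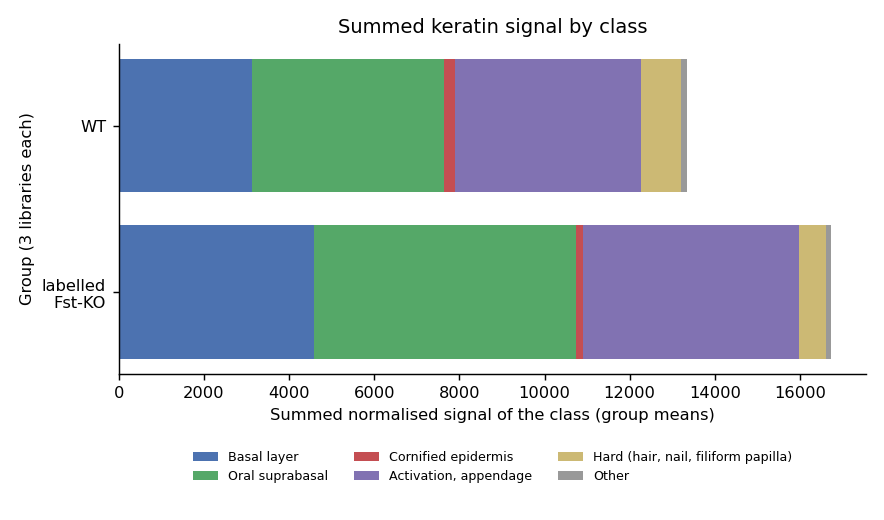
Summed normalised signal of the 29 keratins by class (stacked, axis from 0), with 1 bar per group of 3 libraries and no error. The whole bar is 13339 in WT and 16726 in the libraries labelled Fst-KO, the basal part widens from 3139 to 4578, and the hard part narrows from 949 to 628.

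Among keratins of activated and appendage epithelium, 5 of 6 listed genes had a ratio above 1, against 81% of all genes. The class median was 1.34. Relative to the median of all genes, 4 of the 6 lay above, and the ratio of the summed signal was 1.02. Krt17, the type I chain of appendages and of activated cells, had 778 against 504 in WT in the authors' deposited table (ratio 1.54, p = 0.0173, FDR 0.299). Krt6a, next to Krt13 in level per kb, had 3426 against 3018 in the authors' deposited table (ratio 1.14, p = 0.425). Krt6a lay at the median of all genes: relative to it the ratio was 0.999, which turns its direction. Krt6b had 534 against 428 in the authors' deposited table (ratio 1.25, p = 0.311).

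Krt16, the usual type I partner of Krt6a, was the exception in its class. Its mean was 291 against 387 in WT in the authors' deposited table, a ratio of 0.752 with p = 0.381. Krt75, known from the companion layer of the hair follicle, had 52.98 against 37.1 in the authors' deposited table (ratio 1.43, p = 0.147). Krt79, a keratin of the hair canal, had the highest ratio of any member, 1.998, at means of 5.31 and 2.66 in the authors' deposited table (p = 0.0792), so its difference rests on a low signal and was 1.21 with 10 added to both means.

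Hard keratins were lower in their means in 9 of 10 cases, against 19% of all genes. The class median was 0.611 and the summed signal 628 against 949. Nearly all of this signal was the filiform pair. Krt84, type II, had 358 against 557 in WT in the authors' deposited table (ratio 0.643, p = 0.219, FDR 0.428). Krt36, type I, had 233 against 333 in the authors' deposited table (ratio 0.701, p = 0.214, FDR 0.425). Neither had an unadjusted p under 0.05, and both are among the 10 highest keratins per kb in WT.

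The keratins of the hair cortex were far scarcer, and their ratios rest on low means: with 10 added to both means, Krt81 was at 0.811, Krt33b at 0.897, Krt39 at 0.918, Krt31 at 0.928 and Krt83 at 0.932. Krt34 had 9.08 against 21.8 in WT in the authors' deposited table (ratio 0.417, p = 0.0605). Krt81, type II, had 2.01 against 4.81 in the authors' deposited table (ratio 0.417, p = 0.108). Krt33b, the 1 hard keratin with an unadjusted p under 0.05, had 1.203 against 2.49 in the authors' deposited table (ratio 0.483, p = 0.0345, FDR 0.311). Krt35, Krt31, Krt83 and Krt39 had ratios from 0.502 to 0.808 in the authors' deposited table, and none of these 4 had such a p. Krt32, of the hair cuticle, stood apart from the class at 1.32, from 2.05 in WT to 2.71 in the authors' deposited table (p = 0.143).

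The other 3 keratins belong to none of these classes, and none had an unadjusted p under 0.05. Krt23, type I, had 53.5 against 51.6 in WT in the authors' deposited table (ratio 1.04, p = 0.779), which is 0.913 relative to the median of all genes. Krt80, a widespread type II keratin, had 63.8 against 71.2 in the authors' deposited table (ratio 0.896, p = 0.643). The short keratin-like gene Krt222 had 1.19 against 1.48 in the authors' deposited table (ratio 0.7997, p = 0.201).

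By filament type, the groups were close. Type I keratins had a median ratio of 0.776, with 6 of 16 above 1, and type II keratins 0.896, with 6 of 13 above 1. Of all genes, 81% were above 1. Summed signal was 7320 against 5878 in WT for type I (1.25 times) and 9405 against 7460 for type II (1.26 times). Relative to the median of all genes these sums were at 1.10 and 1.11. Per kb of exon, type II signal was 0.939 of type I signal in WT and 0.974 in the libraries labelled Fst-KO.

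Textbook partners matched closely in the basal pair and less so elsewhere. The ratio of Krt5 was 1.04 times that of Krt14. The ratio of Krt4 was 1.36 times that of Krt13, that of Krt6a 1.51 times that of Krt16 and that of Krt1 1.89 times that of Krt10, and in each the type II chain had the higher ratio. For Krt6b and Krt17 the quotient was 0.810, with the type I chain higher. None of these differences between partners was tested.

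In the genome, some neighbouring genes had ratios on opposite sides of 1. In GENCODE M21 (mm10) the type I members occupy chromosome 11 from 99232761 to 100261029, the end of Krt17. The type II genes occupy chromosome 15 from 101347444 to 102004482, the end of Krt8. Krt18, a type I keratin that is not a member, lies beyond Krt8. Krt76 (chr15:101884351-101892920, ratio 0.228) is followed by Krt4 (chr15:101918535-101924735, ratio 1.80) after 25614 bases with no other keratin between them, in ratios of the authors' deposited table. Krt78, at 0.638, lies beyond Krt79, at 1.998, after another 5676 bases in the authors' deposited table. On chromosome 11, Krt36 (0.701) and Krt13 (1.32) are separated by 11700 bases, and Krt16 (0.752) and Krt17 (1.54) by 7314 bases, in the authors' deposited table. Among these neighbours only Krt76 and Krt17 had an unadjusted p under 0.05 by Partek's test. The contrasts between neighbours were not tested. The listed hard keratins form 1 run on each chromosome apart from Krt39, and within these runs Krt32 alone was above 1.

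**Figure D4:**
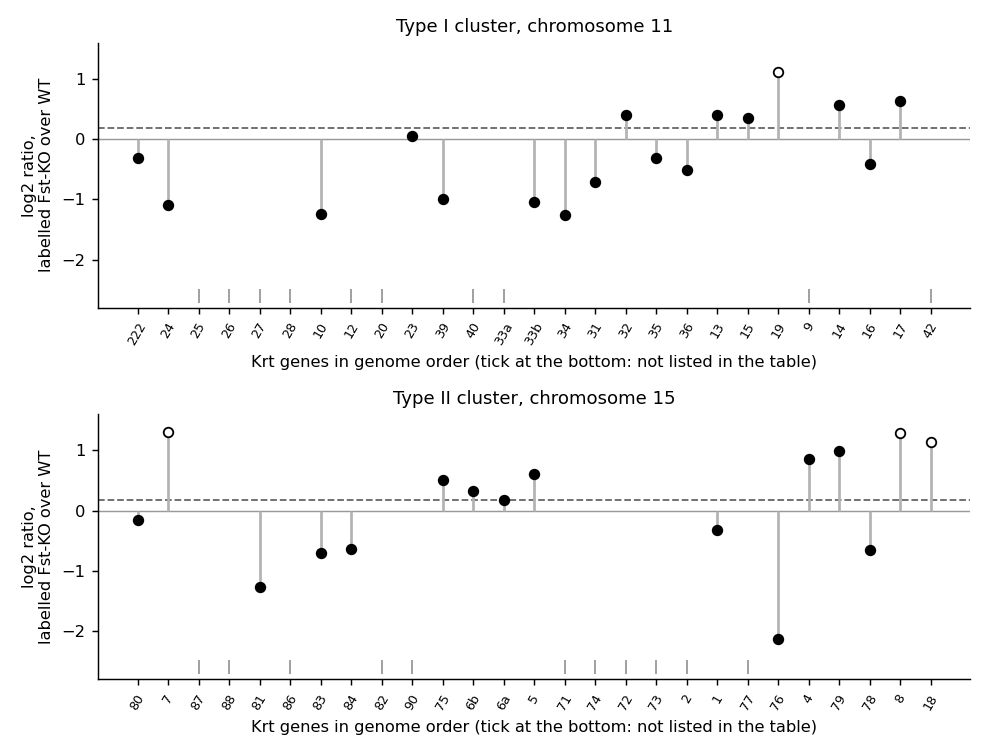
Log2 ratio of the group means, labelled Fst-KO over WT, for keratin genes in genome order on chromosome 11 and chromosome 15, with filled points for members, open points for Krt7, Krt8, Krt18 and Krt19, bottom ticks for genes not listed and a dashed line for the median of all genes (0.18). Krt76 at -2.13 stands next to Krt4 at 0.85, and neighbouring Krt75, Krt6b, Krt6a and Krt5 all lie above 0.

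Genes that share sequence may also share reads. Of all 50-base windows in the longest coding transcript, 49.5% in Krt6a and 50.1% in Krt6b occur unchanged in another annotated gene, mostly in each other, so their separate values are uncertain and their sum is safer. The share was 43.5% for Krt81 (mainly with Krt86), 37.6% for Krt16 (mainly with the predicted gene Gm11597), 33.1% for Krt34, 28.1% for Krt31, 24.2% for Krt33b, 23.2% for Krt83 and 14.4% for Krt14. It was 8.52% for Krt5, 0.265% for Krt76, and 0 for Krt24, Krt10, Krt4, Krt13, Krt1, Krt78 and Krt84. How reads were assigned to genes, and whether by strand, was not given. Exons of 8 members, Krt5, Krt76 and Krt10 among them, also overlap predicted genes on the opposite strand, and reads of both could then not be told apart.

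Proteins that anchor keratin filaments to junctions or bundle them in cornifying cells had ratios on both sides of 1. Of a list of 24, 22 were analysed, with a median ratio of 1.01 and 0 past the FDR by Partek's test. An unadjusted p under 0.05 was found for 2 with a higher mean (9.09%, against 13.4% of all genes) and 4 with a lower mean (18.2%, against 2.17%). The basal linkers Dst and Itga6 stood at 1.22 and 1.24 in the authors' deposited table (p = 0.0277 and 0.0301). Relative to the median of all genes they were at 1.07 and 1.09. The filament-bundling and cornified proteins Hrnr, Tchh, Crnn and Flg had 0.244, 0.323, 0.326 and 0.413 in the authors' deposited table, with p-values of 8.38e-04, 0.00506, 0.0103 and 0.00713. Dsp, desmoplakin, and Plec, plectin, which anchor filaments in most layers, had 1.08 and 0.948 in the authors' deposited table.

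Keratin-associated proteins, the matrix in which hard keratins are embedded, were looked at after their values had been seen. All 7 that were analysed, of 58 annotated, had ratios from 0.411 to 0.525 in the authors' deposited table. A ratio below 1 was found for 19% of all genes. An unadjusted p under 0.05 was found for 0 of the 7, against 15.6% of all genes. Krtap3-3 had 42.5 against 86.3 in WT in the authors' deposited table (p = 0.0857). Of 15 listed transcription factors of keratinocytes, 1 had an unadjusted p under 0.05 (6.67%, against 15.6% of all genes) and 0 passed the FDR by Partek's test: Tfap2c, an AP-2 factor, at 1.47 in the authors' deposited table (p = 0.0222). Trp63, the master regulator of stratified epithelium, was at 1.12, Klf4 at 0.891 and Hoxc13, a regulator of hard keratins, at 0.905 in the authors' deposited table.

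The 4 keratins of simple epithelium had higher ratios than any member. They lay between 2.15 and 2.49 in the authors' deposited table, at WT means from 5.21 to 22.5, and the difference from the members was not tested.

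Marker lists of the cell types in the tissue are given beside these results, and their part in them was not tested. By Partek's test 0 genes of these lists passed the FDR. With a higher mean, an unadjusted p under 0.05 was found for 3 of 14 epithelial, 6 of 12 mesenchyme and 2 of 7 taste bud markers. The same held for 4 of 6 leukocyte and 2 of 8 nerve markers, and for 13.4% of all genes. With a lower mean, such a p was found for 4 of 14 muscle markers and 1 of 4 salivary markers, against 2.17% of all genes. It was found for 0 of 7 endothelium markers. Epithelial markers other than keratins had ratios above 1 for 13 of 14 genes, against 81% of all genes. Their median was 1.21 and their summed signal 956 against 805 in WT. Mesenchyme markers were above 1 for all 12 genes (median 1.32, sum 6883 against 5146). Skeletal muscle markers were below 1 for 12 of 14, against 19% of all genes (median 0.756, sum 12083 against 16522). Salivary gland markers were listed for 4 of 12 genes, all below 1 (sum 8.48 against 20.5), and these values rest on low means. Muc19 (4.87 against 12.9 in WT) made up most of the WT sum. Smgc (0.767 against 1.67), Dcpp3 (0.999 against 2.55) and Dcpp1 (1.85 against 3.47) lay near the lowest mean analysed. Taste bud markers were listed for 7 of 13 genes (median 1.03, sum 180 against 147). Median ratios were 1.44 for leukocyte markers, 1.28 for nerve markers and 1.01 for endothelium.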

How the data were processed

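RNA from 3 WT and 3 Fst-KO libraries was sequenced and processed by the submitters with BWA 0.7.12 and Partek on mm10, per the submitters' processing notes. BWA is not a spliced aligner, so reads across exon junctions can be lost. Annotation, counting and normalisation are unknown. Both group means (least-squares means) are a normalised signal made by the authors, per the file headers. The ratio of mutant to WT, the p-values and the step-up FDR were made by the authors as well, per the file headers. The test is taken to be Partek's gene-specific analysis from the table's name. Recomputing a Benjamini-Hochberg adjustment from p returned the FDR for all 15648 genes, and the column headed as total counts equalled 3 times the sum of both means (relative tolerance 1e-06). "Mutant" in the table was taken as Fst-KO, the only mutant in the labels. Listed signal summed to 632024 in WT and 672618 in the libraries labelled Fst-KO. Depth per library is unknown, so no interval could be given, and an exact permutation test of 3 against 3 could not go below 0.1.

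Medians, sums and shares were computed here with Python 3.11.15, numpy 2.4.6 and pandas 2.3.3, and the adjustment was tested on simulated data. Across 15082 genes the level correlated with exon length (Spearman's rho 0.28, a description across genes), so levels were divided by the summed exon length in GENCODE M21. Named in full were members with an unadjusted p under 0.05, the 10 highest per kb in WT and the 5 highest and 5 lowest ratios. The members and lists were chosen with earlier results of these data known. Alternatives covered pseudocounts of 1 and 10, centring on all genes, abundant genes only, means and sums for medians, and sequence-sharing genes left out.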

Additional observations from a re-analysis of the deposited data

How the results depend on the processing

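The table gives no value per library, so leaving out a replicate was not possible, and the spread that would decide whether a value moved is unknown: a change over 1.5 times was taken instead. No paired analysis was possible because the table holds only group means. Protein identity was not run, since no protein sequences were used. In its place, leaving out the 9 members that share at least 10% of their 50-base windows, chosen after seeing the data, gave a median log2 ratio of -0.23 against -0.32. Summed signal in place of medians turned the sign for all members (0.33), for type I (0.32), for type II (0.33) and for differentiated keratins (0.41), and cut the basal-minus-differentiated difference from 1.21 to 0.13, since the sum follows Krt4 and Krt13. Over members at or above the median level of all genes, type II gave 0.012. Relative to the median of all genes, Krt6a gave -0.0012 and Krt23 -0.13, and the other 27 members kept their sign under the pseudocounts and this centring. In size, 6 of them (Krt79, Krt81, Krt33b, Krt39, Krt31 and Krt83) moved by over 1.5 times with a pseudocount of 10. That pseudocount also cut the members at or under a ratio of 0.5 from 6 to 2, a count added after seeing the data, and a pseudocount of 1 left 4. With the FDR taken over abundant genes only, 0 of 20 members passed, the lowest being 0.258 by Benjamini-Hochberg adjustment of the p-values from Partek's test, and 5 of these 20 (25%) had an unadjusted p under 0.05, against 16.5% of all abundant genes.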
